A study of Danio rerio with 12 samples.

Results

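The genes described here encode the subunits and assembly factors of the mitochondrial respiratory chain and of ATP synthase, the machinery of oxidative phosphorylation. They were chosen by symbol: every row of the deposited count table whose name begins with nduf, uqcr or atp5, with cox4 to cox8 or with sdha to sdhd, together with cyc1. The rule took 96 of 15265 rows. By symbol these were 38 complex I subunits, 5 complex I assembly factors, 5 complex II subunits, 3 complex II assembly factors, 9 complex III subunits, 17 complex IV subunits and 19 ATP synthase genes.

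The respiratory chain lies in the inner mitochondrial membrane. Complex I takes electrons from NADH and complex II from succinate, ubiquinone passes them to complex III, and cytochrome c passes them on to complex IV, which reduces oxygen. Complexes I, III and IV pump protons, and ATP synthase uses the proton gradient to make ATP. Most subunits are encoded in the nucleus and a few in the mitochondrial genome, and tissues with a high demand for ATP, such as heart and skeletal muscle, are known for a high content of these complexes.

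RNA came from whole zebrafish embryos collected at 28 hours post fertilisation. The 4 groups, of 3 libraries each, were miR-34a-/- embryos kept for 4 h in 1 µM camptothecin (CPT), miR-34a-/- embryos kept in 0.005% DMSO, wild-type embryos in CPT and wild-type embryos in DMSO. CPT poisons topoisomerase I and so breaks DNA, and miR-34a is a microRNA that p53 is known to induce. It was added from a stock in DMSO, and the labels give no DMSO content for the CPT groups. Each library was made from a pool of 30 to 50 embryos, so fewer cells of a type and less RNA per cell cannot be told apart. The labels number the libraries without naming separate clutches, so that the p-values below measure the spread between these pools, part of which may be technical.

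Library totals were between 13.5 and 27.9 M counts. The row of the mutated gene, mir34, had 0 counts in all 6 mutant libraries. It had 9, 9 and 32 counts in wild-type CPT libraries and 0, 1 and 0 in wild-type DMSO libraries. Levels below are CPM, a gene's count relative to the size of its library, after scaling by TMM. This method sets a trimmed mean of the log ratios between libraries to 0, on the assumption that most genes do not change. Yet in the test below, 60.2% of all tested genes changed with CPT in mutants and 60.8% in wild-type embryos. Whether TMM suits such data was not tested here. The TMM factors were 0.835 to 0.962 in wild-type CPT libraries, which set these libraries apart, and 1.01 to 1.09 in the other 9. With library totals in place of TMM, the median log2 fold change of all tested genes was -0.23 for CPT over DMSO in wild-type embryos, -0.06 in mutants and 0.20 for mutant CPT over wild-type CPT. Under TMM it was between -0.01 and 0.01 in each of these comparisons.

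Respiratory chain and ATP synthase transcripts made up a larger share of all counts after CPT in both genotypes. The share was 1.72 ± 0.03% in mutant CPT embryos and 1.45 ± 0.05% in mutant DMSO embryos (SD, n = 3 each). In wild-type embryos it was 1.73 ± 0.06% with CPT and 1.47 ± 0.03% with DMSO (SD, n = 3 each). In each genotype the lowest CPT library, at 1.69% in mutants and 1.68% in wild-type embryos, lay above the highest DMSO library, at 1.49% in mutants and 1.5% in wild-type embryos. These shares do not depend on TMM. After TMM scaling the summed level of the 96 rows was 16971 ± 496 CPM in mutant CPT, 13713 ± 887 in mutant DMSO, 19431 ± 752 in wild-type CPT and 14020 ± 414 in wild-type DMSO embryos. The CPT libraries of the genotypes thus had overlapping shares of all counts, but separate TMM-scaled sums.

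**Figure D1:**
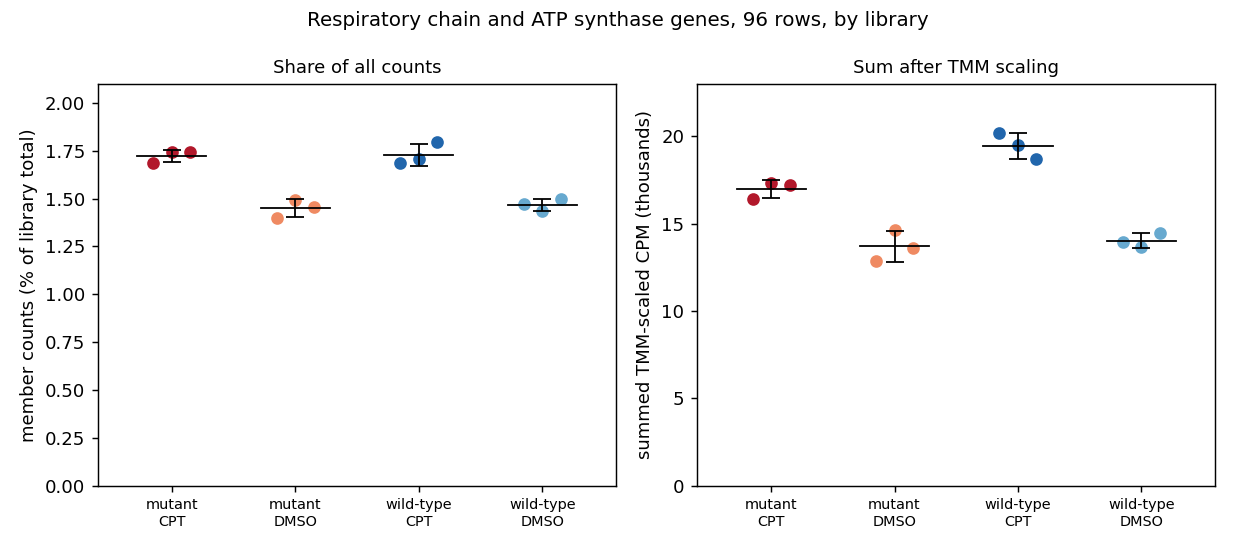
Counts of the 96 rows in each library, as a percentage of the library total (left axis) and as the sum of TMM-scaled CPM (right axis). Points are libraries, long bars are means and short bars are SD (n = 3 per group); every CPT library lies above every DMSO library of its genotype, and the CPT groups of the genotypes overlap in the share but not in the scaled sum.

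Single genes were tested with edgeR's quasi-likelihood test across the 11866 genes that passed a filter on low counts, 80 of the 96 among them. A gene is said to have risen or fallen where its Benjamini-Hochberg adjusted p was under 0.05. In mutants, 41 of the 80 rose with CPT and 2 fell, where 28.5% of all tested genes rose and 31.7% fell (60.2% in either direction). In wild-type embryos, 50 of the 80 rose and 2 fell, where 29.1% of all tested genes rose and 31.8% fell (60.8% in either direction). The median log2 fold change of the 80 was 0.31 in mutants and 0.39 in wild-type embryos, against -0.01 and -0.00 over all tested genes. With library totals in place of TMM, 34 rose and 3 fell in mutants, where 24.7% of all tested genes rose and 33.4% fell. In wild-type embryos 24 rose and 8 fell with library totals, where 17.1% of all tested genes rose and 40.4% fell, and the median of the 80 was 0.16. The distance of that median from the median of all tested genes was 0.39 under both scalings in wild-type embryos and 0.32 under both in mutants. A change of scaling shifts all genes of a comparison by nearly the same amount. This distance could therefore hardly differ between the scalings, and it does not test the choice of scaling.

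Markers of skeletal muscle, a tissue rich in mitochondria, took a smaller share of counts with CPT. The 17 markers together held 1.92% to 2.47% of counts in mutant CPT and 3.52% to 4.34% in mutant DMSO libraries, and 2.74% to 3.26% in wild-type CPT against 3.61% to 3.79% in wild-type DMSO libraries, with none of the 17 at 0 in any library. After TMM scaling their sums were 24017, 19115 and 22614 CPM in mutant CPT against 39941, 38381 and 32901 in mutant DMSO libraries, which did not overlap. In wild-type embryos the scaled sums were 35360, 37241 and 28524 CPM with CPT against 36019, 34426 and 35936 with DMSO, which overlapped, so the lower muscle total of wild-type CPT libraries was seen in the share of counts but not in the scaled sum. In mutants 11 of the 17 fell and 2 rose, and in wild-type embryos 7 fell and 2 rose, where 31.7% and 31.8% of all tested genes fell. With library totals 9 of the 17 fell and 1 rose in wild-type embryos, where 40.4% of all tested genes fell and 17.1% rose. The 6 heart markers held 0.0146% to 0.0157% of counts in mutant CPT and 0.0203% to 0.0223% in mutant DMSO libraries, and 0.0117% to 0.0128% in wild-type CPT against 0.0209% to 0.0235% in wild-type DMSO libraries. Of these 6, 3 fell in mutants and 4 in wild-type embryos, and none rose. The part of cell-type composition in the rise of the respiratory genes was not tested.

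Complex I, the NADH dehydrogenase, is the largest of the complexes, and both calls of a fall in mutants were among its subunits. Of its 29 tested subunits, 12 rose and 2 fell in mutants (median log2 fold change 0.19), and 15 rose and none fell in wild-type embryos (median 0.28). With library totals in place of TMM these were 10 higher and 3 lower in mutants, and 3 higher and 4 lower in wild-type embryos. The wild-type median was then 0.05, against -0.23 over all tested genes. For this class and those below, 28.5% of all tested genes rose and 31.7% fell in mutants with TMM, and 29.1% and 31.8% in wild-type embryos. With library totals these shares were 24.7% and 33.4% in mutants, and 17.1% and 40.4% in wild-type embryos.

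The row ndufa4l, whose mammalian relative NDUFA4 is now known as a complex IV subunit, was counted in complex I by its symbol. It had the smallest p among these subunits in wild-type embryos. It measured 163, 203 and 169 CPM in mutant CPT against 124, 150 and 124 in mutant DMSO libraries, and 276, 250 and 238 CPM in wild-type CPT against 141, 152 and 185 in wild-type DMSO libraries. CPT and DMSO libraries did not overlap in either genotype. Its log2 fold change was 0.43 ± 0.12 (SE; edgeR adjusted p 0.00407) in mutants and 0.68 ± 0.12 (edgeR adjusted p 5.1e-05) in wild-type embryos. Among the iron-sulfur subunits, ndufs7 rose by 0.57 in mutants and by 0.65 in wild-type embryos, and ndufs8a by 0.27 and by 0.26. Both ndufs8a calls were lost with library totals. In each genotype the ndufs8a call was also lost in 2 of 12 fits that each left out a library.

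The iron-sulfur subunit ndufs1 had 188, 174 and 175 CPM in mutant CPT against 244, 235 and 218 in mutant DMSO libraries, and all 3 CPT libraries lay below all 3 DMSO libraries. It fell by 0.38 ± 0.11 on the log2 scale in mutants (SE; edgeR adjusted p 0.0063), and its change in wild-type embryos was -0.10 ± 0.11 (edgeR adjusted p 0.467). With library totals ndufs1 was lower in both genotypes, with -0.44 in mutants (edgeR adjusted p 0.000972) and -0.34 in wild-type embryos (edgeR adjusted p 0.00728). The flavin-binding subunit ndufv1, which receives electrons from NADH, rose in wild-type embryos (0.40 ± 0.11, SE; edgeR adjusted p 0.00317) and had a log2 fold change of 0.01 ± 0.11 in mutants. The wild-type ndufv1 call was lost with library totals (0.16, edgeR adjusted p 0.181).

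Of the 5 complex I assembly factors, which build the complex without remaining in it, 3 rose in mutants and 4 in wild-type embryos, and none fell. With library totals 3 rose in mutants and 1 in wild-type embryos. The factor ndufaf3 had the smallest p of all members in wild-type embryos. It measured 92.7, 97.3 and 94.7 CPM in mutant CPT against 53.6, 62.7 and 48.6 in mutant DMSO libraries, and 114, 90.6 and 103 CPM in wild-type CPT against 58.5, 46.2 and 59.7 in wild-type DMSO libraries. Every CPT library was far above every DMSO library, a 1.72-fold difference in mutants (edgeR adjusted p 9.79e-06) and a 1.87-fold difference in wild-type embryos (edgeR adjusted p 1.58e-06). The factors ndufaf1 and ndufaf7 rose in both genotypes as well, by 0.39 each on the log2 scale in mutants and by 0.47 and 0.52 in wild-type embryos, while ndufaf5 rose in wild-type embryos (0.39) and had -0.02 in mutants.

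Complex II, succinate dehydrogenase, had 3 tested subunits. The iron-sulfur subunit sdhb rose in both genotypes, with 217, 227 and 243 CPM in mutant CPT against 179, 202 and 189 in mutant DMSO libraries, and 246, 267 and 257 CPM in wild-type CPT against 189, 164 and 168 in wild-type DMSO libraries. The groups did not overlap in either genotype, and the log2 fold changes were 0.27 ± 0.09 (SE; edgeR adjusted p 0.0189) in mutants and 0.56 ± 0.09 (edgeR adjusted p 3.61e-05) in wild-type embryos. The flavoprotein sdha, which oxidises succinate, had log2 fold changes of 0.03 in mutants, which was not called, and 0.55 in wild-type embryos, where it rose. The membrane anchor sdhdb had log2 fold changes of 0.06 in mutants and -0.07 in wild-type embryos, neither past the threshold. With library totals the complex II calls were 0 in mutants, and sdha and sdhb higher with sdhdb lower in wild-type embryos.

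The 2 complex II assembly factors with calls went in opposite directions. The gene sdhaf4, which helps the flavoprotein join the iron-sulfur subunit, had 15, 17.6 and 15.6 CPM in mutant CPT against 5.76, 5.47 and 5.53 in mutant DMSO libraries, and 13.9, 13.2 and 15.3 CPM in wild-type CPT against 6.1, 8.16 and 11 in wild-type DMSO libraries. Its 2.88-fold rise in mutants was the largest of any member in either genotype (edgeR adjusted p 4.36e-07), and in wild-type embryos it rose 1.67-fold (edgeR adjusted p 0.000905). The gene sdhaf3, which aids the iron-sulfur subunit, had 10.3, 9.91 and 8.96 CPM in mutant CPT against 11.2, 9.94 and 10.8 in mutant DMSO libraries, which overlapped. In wild-type embryos it had 6.31, 7.91 and 8.48 CPM with CPT against 12.8, 13.9 and 13.5 with DMSO, with no overlap. The gene fell by 0.81 ± 0.15 on the log2 scale in wild-type embryos (SE; edgeR adjusted p 6.92e-05), and its change in mutants was -0.12 ± 0.15 (edgeR adjusted p 0.483).

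In complex III, which passes electrons from ubiquinone to cytochrome c, 4 of 8 tested subunits rose in mutants and 5 in wild-type embryos, and none fell (medians 0.28 and 0.34). With library totals 4 rose in mutants, and 3 rose and 1 fell in wild-type embryos. The hinge protein gene uqcrh measured 476, 466 and 490 CPM in mutant CPT against 260, 321 and 299 in mutant DMSO libraries. It measured 548, 508 and 623 CPM in wild-type CPT against 305, 363 and 367 in wild-type DMSO libraries. The CPT and DMSO libraries of each genotype were well apart, and the log2 fold change was 0.70 ± 0.11 (SE) in each, with edgeR adjusted p 1.89e-05 in mutants and 1.99e-05 in wild-type embryos. The Rieske iron-sulfur protein gene uqcrfs1 rose by 0.80 in mutants and by 0.57 in wild-type embryos, and the small subunit uqcr10 by 0.82 and by 0.29, although its wild-type CPT and DMSO libraries overlapped. The wild-type uqcr10 call was lost in 3 of 12 fits that each left out a library, with adjusted p up to 0.152. It was also lost with library totals (0.07, edgeR adjusted p 0.679). The heme-carrying cytochrome c1 gene cyc1 had 315, 302 and 305 CPM in mutant CPT against 278, 364 and 315 in mutant DMSO libraries, which overlapped, and 401, 418 and 387 CPM in wild-type CPT against 293, 273 and 258 in wild-type DMSO libraries, which did not. It rose in wild-type embryos (0.55 ± 0.10, SE; edgeR adjusted p 0.000131), and its log2 fold change in mutants was -0.05 ± 0.10 (edgeR adjusted p 0.675).

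In complex IV, cytochrome c oxidase, 8 of 14 tested subunits rose in mutants and 9 in wild-type embryos, none fell, and the median log2 fold changes were 0.59 and 0.48. With library totals 7 rose in mutants and 4 in wild-type embryos, again with none lower. The small subunit gene cox8a measured 237, 270 and 261 CPM in mutant CPT against 146, 149 and 130 in mutant DMSO libraries, and 303, 287 and 274 CPM in wild-type CPT against 152, 157 and 198 in wild-type DMSO libraries. Again no CPT library overlapped with a DMSO library of its genotype, and the rise was 1.80-fold in mutants (edgeR adjusted p 1.11e-06) and 1.70-fold in wild-type embryos (edgeR adjusted p 3.78e-06). The subunit gene cox4i1, whose product contacts the catalytic core, rose by 0.33 in mutants and by 0.43 in wild-type embryos. The subunit gene cox6b2 rose by 0.57 in mutants and by 0.26 in wild-type embryos, and cox7b by 0.67 and by 0.49. The wild-type cox6b2 call was lost in 3 of 12 fits that each left out a library, with adjusted p up to 0.137. With library totals cox6b2 had 0.03 (edgeR adjusted p 0.802) and cox7b 0.26 (edgeR adjusted p 0.0971) in wild-type embryos, and cox4i1 had no call in either genotype. The gene cox6a1 had 174, 233 and 206 CPM in mutant CPT against 168, 174 and 215 in mutant DMSO libraries, which overlapped, and 313, 250 and 287 CPM in wild-type CPT against 187, 169 and 204 in wild-type DMSO libraries, which did not. It rose in wild-type embryos (0.60 ± 0.12, SE; edgeR adjusted p 0.000305) and had 0.14 ± 0.12 in mutants (edgeR adjusted p 0.343).

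ATP synthase had the highest class median in wild-type embryos: 12 of 18 tested genes rose and none fell in mutants (median 0.38), and 14 rose and 1 fell in wild-type embryos (median 0.59). With library totals 9 rose in mutants, and 10 rose and 1 fell in wild-type embryos. Differences between the classes were not tested. The catalytic head holds the alpha subunit, encoded by atp5fa1, and the beta subunit, encoded by atp5f1b. In wild-type embryos atp5f1b had 2451, 2249 and 1897 CPM with CPT against 1372, 1406 and 1301 with DMSO, and atp5fa1 had 2338, 2317 and 2068 CPM with CPT against 1603, 1316 and 1395 with DMSO. Neither gene's CPT libraries overlapped with its DMSO libraries, and they rose by 0.69 ± 0.11 (edgeR adjusted p 2.75e-05) and 0.64 ± 0.11 (edgeR adjusted p 5.32e-05) on the log2 scale (SE).

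In mutants the same head subunits gave no call. The beta subunit gene atp5f1b had 1591, 1575 and 1643 CPM in mutant CPT against 1497, 1632 and 1404 in mutant DMSO libraries (log2 fold change 0.09 ± 0.11, SE; edgeR adjusted p 0.537). The alpha subunit gene atp5fa1 had 1641, 1609 and 1675 CPM in mutant CPT against 1732, 1683 and 1517 in mutant DMSO libraries (-0.00 ± 0.11, SE; edgeR adjusted p 0.988; 95% interval -0.23 to 0.23). Treated and control libraries of the mutants were intermixed for both genes.

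Other parts of the enzyme rose in mutants too. The gamma subunit gene atp5f1c, which forms the rotating stalk, had 1162, 1214 and 1291 CPM in mutant CPT against 701, 680 and 624 in mutant DMSO libraries. In wild-type embryos it had 998, 938 and 1067 CPM with CPT against 680, 540 and 773 with DMSO. Groups were separate in each genotype, and the rise was 1.83-fold in mutants (edgeR adjusted p 3.88e-06) and 1.51-fold in wild-type embryos (edgeR adjusted p 0.000294). The epsilon subunit gene atp5f1e rose by 0.91 on the log2 scale in mutants and by 0.67 in wild-type embryos, and atp5mf, a membrane subunit, by 0.81 and by 0.41. The wild-type atp5mf call was lost with library totals (0.19, edgeR adjusted p 0.229). Among the genes of the proton-carrying c ring, atp5mc1 rose by 0.51 in mutants and by 0.70 in wild-type embryos. The c subunit gene atp5mc3a had 317, 300 and 297 CPM in mutant CPT against 246, 261 and 238 in mutant DMSO libraries, and 457, 368 and 427 CPM in wild-type CPT against 257, 198 and 258 in wild-type DMSO libraries. Its groups were separate in both genotypes, and it rose by 0.30 ± 0.11 in mutants (SE; edgeR adjusted p 0.0281) and by 0.81 ± 0.11 in wild-type embryos (edgeR adjusted p 3.46e-06). The mutant call was lost without mutant DMSO library 1 or 3 or mutant CPT library 1 or 2, with adjusted p up to 0.0895, and with library totals (0.24, adjusted p 0.0729). The inhibitor gene atp5if1a, whose product blocks ATP hydrolysis by the enzyme, had 163, 177 and 182 CPM in mutant CPT against 112, 176 and 138 in mutant DMSO libraries, which overlapped, and 209, 205 and 212 CPM in wild-type CPT against 137, 131 and 115 in wild-type DMSO libraries, which did not. It rose by 0.29 ± 0.12 in mutants (SE; edgeR adjusted p 0.0487) and by 0.71 ± 0.12 in wild-type embryos (edgeR adjusted p 5.64e-05). The mutant call was lost in 7 of 12 fits that each left out a library, with adjusted p up to 0.294: without any 1 of the wild-type DMSO libraries, mutant DMSO library 1 or 3, or mutant CPT library 2 or 3. With library totals the mutant atp5if1a call was lost as well (0.24, edgeR adjusted p 0.0962).

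The one ATP synthase gene that fell was atp5l, named for the g subunit of the membrane part. It had 235, 235 and 222 CPM in mutant CPT against 195, 320 and 367 in mutant DMSO libraries, and 119, 198 and 215 CPM in wild-type CPT against 342, 430 and 213 in wild-type DMSO libraries. The groups overlapped in both genotypes. The log2 fold change was -0.35 ± 0.29 (SE; edgeR adjusted p 0.326) in mutants and -0.89 ± 0.29 (edgeR adjusted p 0.0218) in wild-type embryos. The wild-type call was lost without wild-type CPT library 1 and without wild-type DMSO library 2, with adjusted p up to 0.093, and over the 12 fits that each left out a library its log2 fold change was between -1.12 and -0.63.

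**Figure D2:**
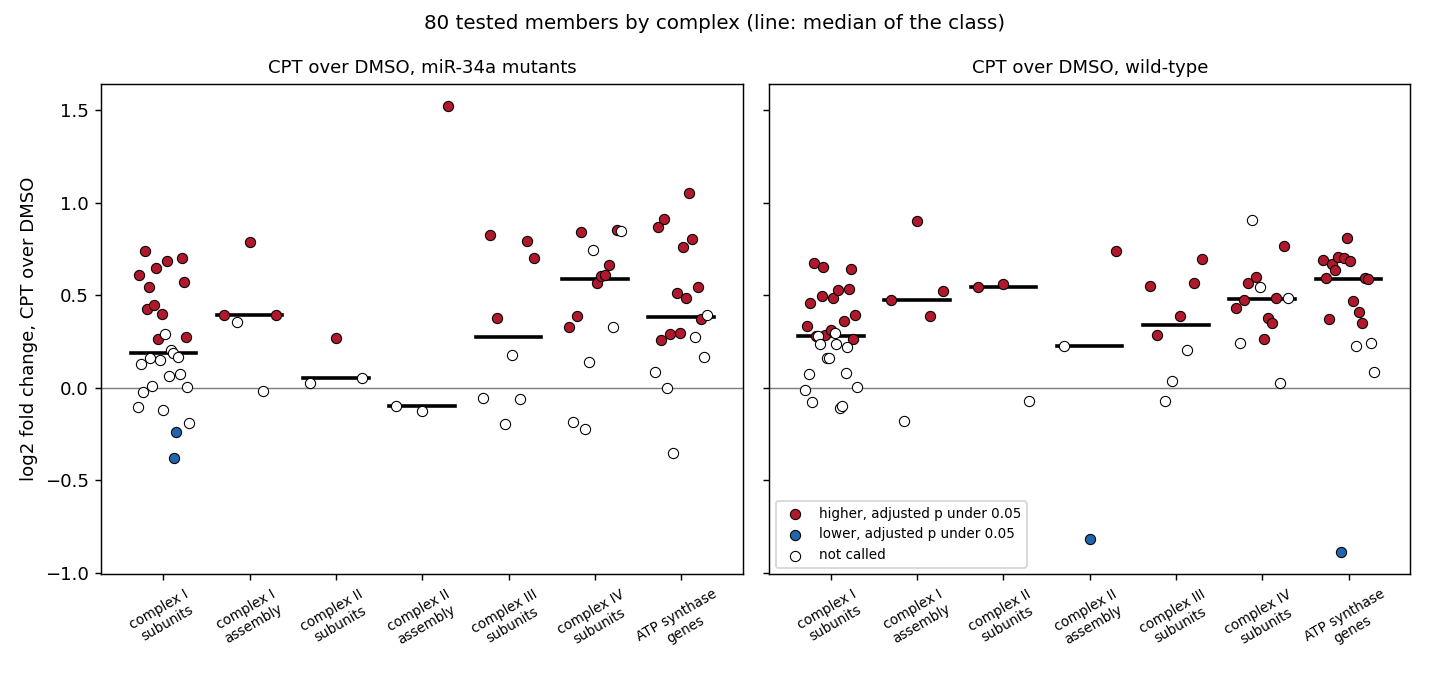
Log2 fold change of CPT over DMSO (vertical axis) for each of the 80 tested genes, by complex, in miR-34a mutants (left) and wild-type embryos (right). Red points rose, blue points fell and open points were not called (adjusted p under 0.05, edgeR); black lines are class medians, which lie above 0 in every class except the complex II assembly factors of mutants.

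Set side by side under TMM, 36 of the 80 genes rose in both genotypes and 22 were called in neither. With library totals 24 of the 80 rose in wild-type embryos, so fewer than 36 rose in both. Under TMM 13 rose in wild-type embryos with no call in mutants, and 5 rose in mutants with no call in wild-type embryos. The 5 were ndufa3, ndufb6, ndufb11, uqcrb and atp5meb, with log2 fold changes of 0.74, 0.69, 0.40, 0.38 and 1.05 in mutants and of -0.08, 0.30, 0.16, -0.07 and 0.23 in wild-type embryos. The 13 were ndufa2, ndufb2, ndufb3, ndufb8, ndufv1 and ndufaf5 of complex I, sdha, cyc1 and uqcrc2a, cox6a1, and atp5f1b, atp5fa1 and atp5pb of ATP synthase. Of these, the wild-type call of ndufb2 was lost without wild-type CPT library 1 or any 1 of the wild-type DMSO libraries, with adjusted p up to 0.126. That of ndufa2 was lost without wild-type CPT library 1 or wild-type DMSO library 1 or 3, with adjusted p up to 0.202. With library totals the wild-type calls of ndufa2, ndufb2, ndufb3, ndufv1, ndufaf5, uqcrc2a and atp5pb were lost, and the others of the 13 kept theirs. The 5 genes that rose in mutants alone kept their mutant calls. Under TMM ndufs1 fell in mutants with no call in wild-type embryos, and atp5l and sdhaf3 fell in wild-type embryos with no call in mutants. With library totals ndufs1 and uqcrb were lower with CPT in wild-type embryos. In 43 genes all mutant CPT libraries lay above all mutant DMSO libraries and in 2 below, against 31.8% and 34.4% of all tested genes. In wild-type embryos 50 lay above and 1 below, against 30.6% and 33.7% of all tested genes. The genotypes have their own control libraries, and across the 80 genes their log2 fold changes correlated with a Pearson r of 0.44 and a Spearman rho of 0.42, against 0.91 and 0.88 across the 11866 tested genes. This describes genes of the same 12 libraries, which are not independent, and the range of fold changes was narrower among the 80.

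A direct test of the difference in response (the interaction, mutant response minus wild-type response) called none of the 80 genes with edgeR, where 0.16% of all tested genes were called, 0.0253% higher and 0.135% lower. At an unadjusted p under 0.05 there were 22 of the 80, and 1797 of all 11866 tested genes. For this difference limma-voom called 0 of the 80, and DESeq2 called 8 of them and 333 of all tested genes. The 8 included atp5f1b, atp5fa1, atp5mc3a, cyc1 and sdha with a lower response in mutants, and ndufa3 and sdhaf3 with a higher one. On the log2 scale the difference was -0.64 ± 0.16 for atp5fa1 (SE; edgeR adjusted p 0.0795) and -0.60 ± 0.15 for cyc1 (SE; edgeR adjusted p 0.0789). Leaving out wild-type CPT library 3 gave 8 calls, wild-type DMSO library 1 gave 3 and mutant DMSO library 1 gave 1. The calls among all tested genes in these fits are not given here, so the counts cannot be set against that share.

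**Figure D3:**
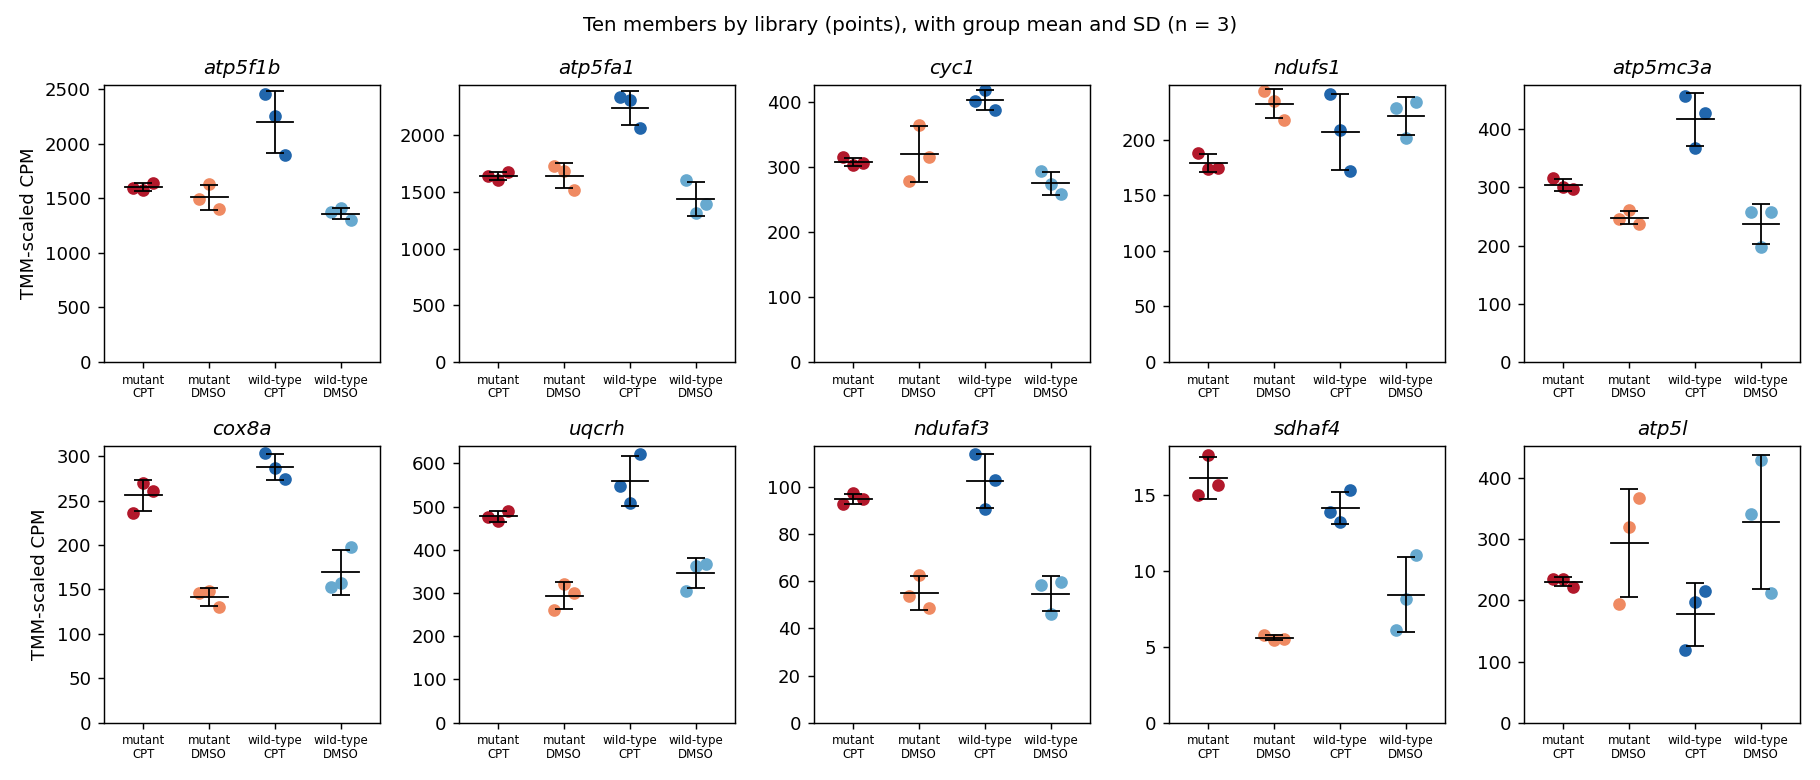
TMM-scaled CPM of 10 respiratory genes in each library (points), with group means and SD (n = 3 per group); each panel has its own axis from 0. In atp5f1b, atp5fa1 and cyc1 the wild-type CPT libraries stand above the other 3 groups, in ndufs1 the mutant CPT libraries lie below the mutant DMSO libraries, in cox8a, uqcrh, ndufaf3 and sdhaf4 CPT is above DMSO in both genotypes, and in atp5l the CPT and DMSO libraries of each genotype overlap.

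Between mutant CPT and wild-type CPT embryos, 11 of the 80 genes were lower in mutants and none was higher, where 2.16% of all tested genes were lower and 1.13% were higher (3.29% in either direction). With library totals in place of TMM, 1 (ndufa2) was lower and 9 were higher, where 0.902% of all tested genes were lower and 9.17% were higher. The median of the 80 was -0.18 with TMM and 0.01 with library totals. Its distance from the median of all tested genes was -0.19 under both, which the nearly equal shift of all genes fixes in advance. Among the 11 were the complex I subunits ndufa2, ndufb2, ndufb7 and ndufb8, and ndufa4l, which was placed in complex I by its symbol alone. Also among them were the complex III subunit cyc1, the complex IV subunit cox6a1, and atp5f1b, atp5fa1 and atp5mc3a of ATP synthase. Their log2 fold changes ran from -0.77 to -0.39 with TMM and from -0.57 to -0.20 with library totals. The largest difference was in ndufa2, an accessory subunit, with 24.2, 26.3 and 21.4 CPM in mutant CPT against 55.1, 34.7 and 33.2 in wild-type CPT libraries, a log2 fold change of -0.77 ± 0.19 (SE; edgeR adjusted p 0.0322). The row ndufa4l had a log2 fold change of -0.51 ± 0.12 (SE; edgeR adjusted p 0.0237). For all 11 the mutant CPT libraries lay below the wild-type CPT libraries; among the 80 this held for 27 genes, and for 8 they lay above, where 12.2% of all tested genes lay below and 10.6% above.

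The count of 11 moved with single libraries. It was 0 without wild-type CPT library 2 and 0 without mutant CPT library 3, 1 without wild-type CPT library 1, 1 without mutant CPT library 1, 2 without mutant CPT library 2 and 17 without wild-type CPT library 3. Over the 12 fits that each left out a library, the log2 fold change of cyc1 was between -0.42 and -0.36. That of atp5fa1 was between -0.51 and -0.42, and that of atp5mc3a between -0.54 and -0.39. The range was wider for ndufa2, between -0.91 and -0.50, and for ndufb7, between -0.66 and -0.41. A fit to the 6 CPT libraries alone called 7, and 193 of all 11337 genes tested in that fit. For the fits that each left out a library, the calls among all tested genes are not given here. With TMM, skeletal muscle markers differed in the same direction, with 7 of 17 lower in mutant CPT than in wild-type CPT embryos and none higher. With library totals 5 of these 17 were lower and 1 was higher. Of all tested genes 2.16% were lower and 1.13% higher with TMM, and 0.902% and 9.17% with library totals. The summed share of the muscle markers was below that of every wild-type CPT library in every mutant CPT library. With TMM the muscle gene ckmb, encoding a creatine kinase, had a log2 fold change of -0.52 and the actin gene actc1b one of -0.74. Of the other marker lists with TMM, 1 of 5 epidermal markers (the keratin gene krt4, -0.97), 2 of 10 neural markers and 1 of 4 yolk syncytial layer markers were lower. None was higher, and no heart, erythroid or notochord marker was called. With library totals no neural marker was called and 1 of 6 heart markers was higher. The counts of the epidermal, yolk syncytial layer, erythroid and notochord lists were the same. The part of these cell types in the difference was not tested.

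**Figure D4:**
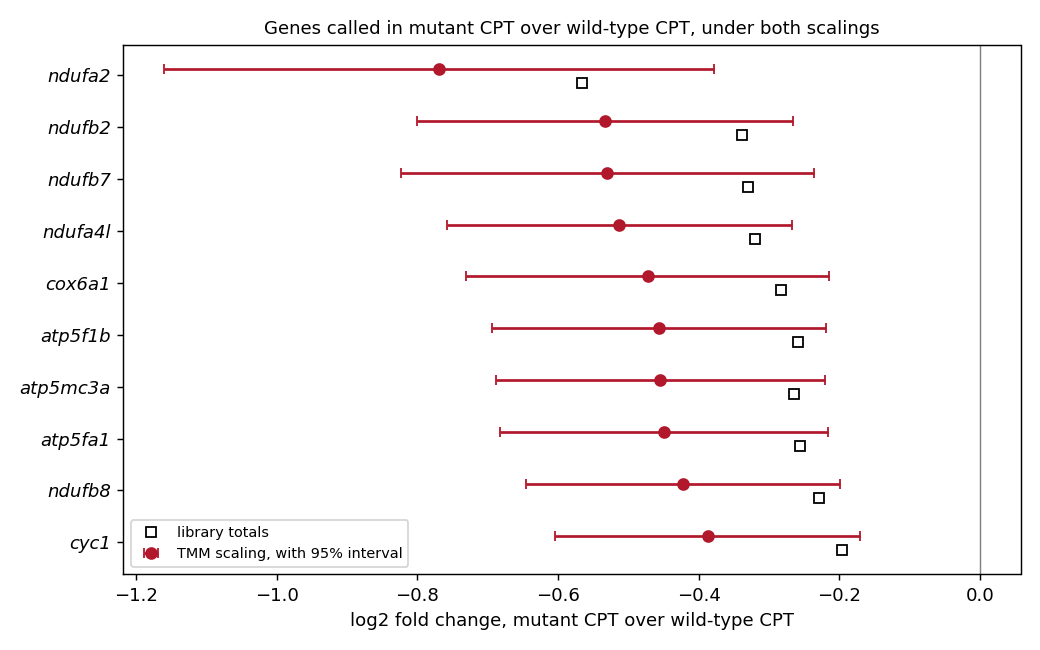
Log2 fold change of mutant CPT over wild-type CPT embryos (horizontal axis) for 10 genes called under TMM scaling. Red circles with 95% intervals are TMM-scaled values and open squares are values with library totals; the squares lie nearer to 0 for all 10, between -0.57 and -0.20.

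Between mutant DMSO and wild-type DMSO embryos edgeR called none of the 80 genes, where 0.598% of all tested genes were called, 0.194% higher and 0.405% lower. At an unadjusted p under 0.05 there were 21 of the 80, and 1397 of all 11866 tested genes. DESeq2 called 1 of the 80 (cox6b2, lower in mutants) and 184 of all tested genes, limma-voom called 0 of the 80, and their median log2 fold change was -0.15. The gene cox6b2 had 235, 258 and 263 CPM in mutant DMSO against 291, 315 and 358 in wild-type DMSO libraries, which did not overlap (log2 fold change -0.35 ± 0.10, SE; edgeR adjusted p 0.139). The next smallest p belonged to other complex IV subunits, cox7c (-0.59 ± 0.17, SE; edgeR adjusted p 0.142) and cox7b (-0.46 ± 0.14, SE; edgeR adjusted p 0.162). Without wild-type DMSO library 1 the count was 3, namely cox7b, cox7c and sdhaf4. The calls among all tested genes in that fit are not given here. In 2 genes all mutant DMSO libraries lay above all wild-type DMSO libraries and in 12 below, against 9.1% and 7.96% of all tested genes.

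Zebrafish carry duplicates of several of these genes, and 9 pairs of members differ only by a final a or b. Both copies were tested in 6 pairs. In the carrier protein pair ndufab1a and ndufab1b the log2 fold changes were 0.65 and 0.27 in mutants and 0.65 and 0.29 in wild-type embryos, all 4 of them called. With library totals 1 of the 4 calls remained, that of ndufab1a in mutants. The calls of ndufab1b were also lost without mutant DMSO library 1 or 3 or mutant CPT library 2 in mutants, with adjusted p up to 0.251, and without wild-type DMSO library 1 or 2 in wild-type embryos, with adjusted p up to 0.0767. The complex IV pair cox5aa and cox5ab rose by 0.39 and 0.84 in mutants and by 0.48 and 0.57 in wild-type embryos. The c ring pair atp5mc3a and atp5mc3b rose by 0.30 and 0.76 in mutants and by 0.81 and 0.69 in wild-type embryos. The mature c subunits of vertebrates are nearly identical, and the counting of multiply aligned reads is not known here, so the split of reads within this pair and atp5mc1 is uncertain. In atp5mea and atp5meb the values were 0.48 and 1.05 in mutants and 0.47 and 0.23 in wild-type embryos, with the last not called. With library totals the wild-type atp5mea call was lost (0.26, edgeR adjusted p 0.115). The core protein gene uqcrc2a rose by 0.39 in wild-type embryos and had 0.18, not called, in mutants, and uqcrc2b was called in neither genotype. In cox8a and cox8b the second copy had 100 counts over all libraries and no call.

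Of the 96 rows, 16 had too few counts to be tested, with at most 11 counts in any library and at most 43 in all 12 together. Placed by symbol, they were ndufa1, ndufa4, ndufa8, ndufa12, ndufb4, ndufb5, ndufb9, ndufs4 and ndufs8b of complex I, sdhc and sdhda of complex II, uqcrq of complex III, cox6a2, cox7a1 and cox7a3 of complex IV, and atp5if1b. The gene cox7a1 had 0 counts in all 12 libraries, which allows up to 3 in 244.6 M counts, or 0.0123 CPM. The membrane anchor sdhda had the most, with summed counts of 43, whereas the least abundant tested member, cox8b, had 100. Several of the 16, such as ndufa1, ndufa8, ndufs4, sdhc and uqcrq, encode subunits that are known as constant parts of their complexes in other vertebrates. Whether the low counts come from the embryos or from the annotation used for counting was not tested. The 13 protein genes of the mitochondrial genome, searched by their usual symbols, had no row among those analysed here.

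Genes that act around the chain gave a mixed picture. Of all tested genes, 28.5% rose and 31.7% fell in mutants, and 29.1% rose and 31.8% fell in wild-type embryos. With library totals these shares were 24.7% and 33.4% in mutants, and 17.1% and 40.4% in wild-type embryos. Of 32 tested assembly factors outside the 96 rows, 18 rose and 2 fell in mutants, and 19 rose and 4 fell in wild-type embryos; with library totals these were 16 and 3 in mutants and 11 and 6 in wild-type embryos. The copper chaperone gene sco2 of complex IV rose by 1.12 on the log2 scale in mutants and by 1.48 in wild-type embryos, and the complex I factor gene tmem186 by 2.22 and by 1.44, while the heme synthesis gene cox10 fell by 1.06 and by 1.14. Cytochrome c, encoded by cycsb, rose by 0.74 in mutants and by 0.66 in wild-type embryos. Of 14 tested genes of electron entry and ubiquinone synthesis, 4 rose and 5 fell in mutants, and 3 rose and 5 fell in wild-type embryos. The dehydrogenase gene dhodh rose by 1.20 and by 1.12, and the ubiquinone synthesis gene coq8a fell by 1.56 and by 1.55. Of 6 tested carriers and uncoupling proteins, 1 rose and 3 fell in mutants, and 2 rose and 3 fell in wild-type embryos. The ADP/ATP carrier gene slc25a5 rose by 0.70 and by 0.76, and the uncoupling protein genes ucp1 and ucp2 fell in both genotypes. Of 13 tested regulators of respiratory genes and of mitochondrial DNA, 9 rose and 3 fell in mutants, and 8 rose and 2 fell in wild-type embryos. The transcription factor gene nrf1, a known activator of respiratory genes, rose by 0.58 and by 0.61, the mitochondrial helicase gene twnk by 1.47 and by 1.74, and lrpprc, which stabilises mitochondrial mRNA, fell by 1.89 and by 1.90. With library totals the counts of genes that rose and fell were 2 and 5 in mutants and 2 and 6 in wild-type embryos for electron entry and ubiquinone synthesis, 1 and 3 in each genotype for the carriers, and 8 and 3 in mutants and 5 and 2 in wild-type embryos for the regulators.

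Markers of further tissues were read beside these values, where 28.5% of all tested genes rose and 31.7% fell in mutants, and 29.1% and 31.8% in wild-type embryos. Of 10 markers of neurons and neural progenitors, 6 fell and 1 rose in mutants, and 5 fell and 2 rose in wild-type embryos. Of 6 tested erythroid markers 2 fell in each genotype and none rose, and gata1a was at 0 in all libraries. Of 5 tested epidermal markers 1 rose and 1 fell in mutants, and 4 rose and 1 fell in wild-type embryos. Of 3 tested notochord markers 2 fell in each genotype, and of 4 tested yolk syncytial layer markers 1 fell in mutants, and 2 rose and 1 fell in wild-type embryos. With library totals 6 neural markers fell and 1 rose in wild-type embryos, 2 epidermal markers rose there, and no yolk syncytial layer marker rose. The other counts of these lists were the same. With this scaling 17.1% of all tested genes rose and 40.4% fell in wild-type embryos, and 24.7% and 33.4% in mutants.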

How the data were processed

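Poly(A) RNA of 12 pools of whole zebrafish embryos had been sequenced on an Ion Proton instrument, per the labels' protocols. The deposited table holds whole-number counts of reads per gene symbol, not normalised, which were analysed as deposited. The submitters' processing notes name, in no stated order, HTSeq 0.9.1, STAR 2.7, Picard 2.5.0, Trim Galore 0.4.4 and Bowtie2 as the authors' tools, and danRer11 as the build. For the annotation, the strand setting and multiply aligned reads, what the authors chose is not given in the sources used here. For overlapping genes, antisense pairs and near-identical copies the split of reads is therefore uncertain.

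Genes were kept with filterByExpr by group, scaled with TMM and fitted once across all 12 libraries as 4 group means (edgeR 4.0.16 in R 4.3.3, robust quasi-likelihood, 8 residual degrees of freedom, no replicate block). The 5 contrasts were CPT over DMSO in each genotype, mutant over wild-type in each treatment, and the interaction. Calls used a Benjamini-Hochberg adjusted p under 0.05 over 11866 genes. Intervals are 95% intervals from the same test. The pipeline was tested on simulated data in which few genes changed, equally many up and down. Such data could not test how the results depend on the scaling.

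Alternatives were DESeq2-type size factors, library totals, no filter, DESeq2 1.42.0, limma-voom (limma 3.58.1), the replicate number as a block, only the groups of a contrast, and leaving out each library in turn. The members, the lists of related genes and the cell type markers were chosen with earlier results of these data known. The genes named were, per CPT contrast, the 10 called members with the smallest p and the 5 largest rises and falls; up to 10 members called in each genotype contrast or the interaction, or the 3 smallest p; the 2 most abundant tested members of each class; all a and b pairs; and all untested members. Other members and the related genes and markers that the text names were chosen after their values were seen. A result that the rule would name is not reported here. All 96 symbols matched a RefSeq gene table of assembly GRCz12tu, a different build, so no coordinates are given. No promoter sequences were analysed here.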

Additional observations from a re-analysis of the deposited data

How the results depend on the processing

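Library totals in place of TMM gave 24 members higher and 8 lower for CPT over DMSO in wild-type embryos (50 and 2 with TMM). Of all tested genes 17.1% were higher and 40.4% lower there with library totals, and 29.1% and 31.8% with TMM. The members' medians with library totals were 0.16 there, 0.0086 for mutant CPT over wild-type CPT and 0.12 for the interaction (-0.06 with TMM). The medians of all tested genes were then -0.23, 0.20 and 0.18. In the interaction the members' median lay below that of all tested genes under both scalings. Without a filter 1 member was lower with CPT in wild-type embryos and 1 in mutants, and with DESeq2-type size factors 1 was lower in mutants. DESeq2 called 1 member between the DMSO groups and 8 in the interaction, and a fit to the CPT groups alone called 7. With library totals the members' medians moved by nearly the same amount as those of all tested genes. The cause of the changes in these counts was not tested. No named member called with TMM changed the direction of its log2 fold change. The balance of calls between the CPT groups did change direction, among the members and among all tested genes. With TMM 11 members were lower in mutants and 0 higher, where 2.16% of all tested genes were lower and 1.13% higher. With library totals 1 was lower and 9 were higher, where 0.902% of all tested genes were lower and 9.17% higher.

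Leaving out each library in turn, the members higher with CPT numbered 31 to 45 in mutants and 42 to 56 in wild-type embryos, and the median log2 fold change was 0.25 to 0.39 in mutants and 0.38 to 0.47 in wild-type embryos. Members lower in wild-type embryos numbered 1 to 2, with 1 without wild-type CPT library 1 or wild-type DMSO library 2. Members lower in mutants numbered 1 to 3, with 3 without mutant DMSO library 1, and 1 without any 1 of the wild-type CPT libraries, mutant DMSO library 2 or mutant CPT library 2 or 3. Calls between the DMSO groups numbered 0 to 3, with 3 without wild-type DMSO library 1. Calls between the CPT groups numbered 0 to 17 and their median was -0.21 to -0.10. The interaction had 0 to 8 calls, with 8 without wild-type CPT library 3, and a median of -0.11 to 0.01. For the fits that left out a library, the calls among all tested genes are not given here.

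With the replicate number as a block, 42 members were higher and 2 lower with CPT in mutants, 50 and 2 in wild-type embryos, 11 were lower between the CPT groups, and 0 were called between the DMSO groups or in the interaction. Deviations of same-numbered libraries from their group means correlated between -0.158 and 0.232, with 3 of 18 pairs over 0.1, and 4 of 12 libraries correlated best with their own number. These correlations cannot show whether same-numbered libraries shared a clutch, which the labels do not name. The block was not used.

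No call was made for 28 members in wild-type embryos and 37 in mutants, which does not show that they did not change. The 16 members near 0 counts had too few counts to be tested for a change.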
